A study of Mus musculus with 12 samples.

Results

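A set of 48 cell cycle and DNA replication genes was followed in mouse 3T3-L1 adipocytes after a rise or a loss of Foxp1, a transcription factor of the forkhead family. The genes were chosen by symbol from the 28948 genes listed and fall into 22 replication genes, 14 mitosis genes and 12 genes of G1 control. RNA was sequenced in 12 libraries, 3 for each of 4 constructs: an empty vector control, Foxp1 overexpression (given as constituent overexpression of FOXP1), a scrambled short hairpin RNA (shRNA) control and an shRNA against Foxp1. Each change of Foxp1 has its own control, and the overexpression and hairpin arms share no library. The 3T3-L1 line came from Swiss mouse embryos, grows as fibroblasts and can be turned into fat cells in culture. In all 4 groups the differentiation medium held insulin at 5 µg/ml, dexamethasone at 1 µM, troglitazone at 10 µM and isobutylmethylxanthine at 0.5 mM. Insulin alone was kept from day 4, and growth medium followed from day 6. The day of harvest and the hairpin sequence were not stated, nor whether replicates came from separate cultures, so p-values measure only the spread between these libraries.

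DNA replication starts where the Mcm2-7 helicase is loaded onto origins by Cdc6 and Cdt1 and then activated together with Cdc45 and the GINS complex. Passage through G1 is driven by D-type cyclins with Cdk4 and Cdk6 and by cyclin E with Cdk2, which phosphorylate the retinoblastoma protein Rb1 and so release E2f1, while Cdkn1b and Cdkn2c hold these kinases back. Mitosis is driven by Cdk1 with cyclins A and B and by the Aurora and Polo-like kinases. Confluent 3T3-L1 cells re-enter the cycle for a few divisions after the hormone mixture is added and then leave it as they become fat cells.

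Promoters of mitosis genes and of replication genes are known for different short motifs, and 6 promoters are printed here for that reason. In the RefSeq promoter windows (GRCm38.p6, 250 bases before to 50 bases after a start), 39 of the 48 genes had an entry. Ccnd2, Aurkb, Gins2, Ccna2, Ccnd1, Tpx2, Mcm4, Ccne2 and Rb1 had none. The cell cycle homology region, searched as TTTGAA on both strands, was found in 17.9% of all 32851 windows. A gene with more than 1 window was counted if any of them matched. The region was found in 8 of 11 mitosis genes, 3 of 20 replication genes (3 of 25 windows) and none of 8 G1 control genes with a window. An E2F motif (TTTGGCGC, TTTCGCGC, TTTCCCGC or TTTGCCGC, both strands) was found in 2.26% of all windows. It was found in 10 of 20 replication genes (10 of 25 windows), 1 of 11 mitosis genes (Cdk1) and 1 of 8 G1 control genes (Cdk2, 1 of 10 windows). CCAAT boxes, searched on both strands, were found in 37.4% of all windows and in 10 of 11 mitosis genes. They were found in 13 of 20 replication genes (15 of 25 windows) and 4 of 8 G1 control genes (4 of 10 windows). The forkhead motif TGTTTAC, the kind of site that Foxp proteins bind, was found in 3.65% of all windows and in Mcm7, Cdc45 and Ccnd3. A match is a string of letters and not a measured binding site. The following 200 bases before the start are given 5′ to 3′ on the strand of the gene, with matches to the cell cycle homology region, CCAAT and E2F motifs in capitals. Where E2F matches overlap, as in the upstream one of Mcm6, the capitals run on. The coordinates are chr4:118437344-118437543 (minus strand) for Cdc20, chr11:99024190-99024389 (minus) for Top2a, chr10:69352913-69353112 (minus) for Cdk1, chr19:37376182-37376381 (plus) for Kif11, chr5:151651209-151651408 (minus) for Rfc3 and chr1:128359706-128359905 (minus) for Mcm6.
Cdc20: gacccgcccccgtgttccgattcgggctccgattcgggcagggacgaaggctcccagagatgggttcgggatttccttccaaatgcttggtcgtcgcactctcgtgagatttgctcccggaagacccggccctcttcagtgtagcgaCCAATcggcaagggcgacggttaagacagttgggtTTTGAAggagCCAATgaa
Top2a: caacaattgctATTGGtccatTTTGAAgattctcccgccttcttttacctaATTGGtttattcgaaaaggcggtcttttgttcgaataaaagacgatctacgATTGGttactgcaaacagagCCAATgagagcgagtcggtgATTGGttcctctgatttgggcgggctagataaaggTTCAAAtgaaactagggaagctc
Cdk1: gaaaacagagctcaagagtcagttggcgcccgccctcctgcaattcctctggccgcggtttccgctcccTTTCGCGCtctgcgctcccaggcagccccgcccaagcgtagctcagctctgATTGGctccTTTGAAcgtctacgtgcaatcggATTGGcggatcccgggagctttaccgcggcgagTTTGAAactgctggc
Kif11: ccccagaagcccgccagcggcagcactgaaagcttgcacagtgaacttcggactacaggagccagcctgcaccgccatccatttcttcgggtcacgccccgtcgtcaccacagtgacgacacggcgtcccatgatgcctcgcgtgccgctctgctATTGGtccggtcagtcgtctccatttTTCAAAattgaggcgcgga
Rfc3: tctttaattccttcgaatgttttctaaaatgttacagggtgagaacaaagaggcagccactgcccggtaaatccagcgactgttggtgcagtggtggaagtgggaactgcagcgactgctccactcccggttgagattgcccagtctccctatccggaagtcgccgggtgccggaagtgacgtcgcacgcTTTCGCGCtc
Mcm6: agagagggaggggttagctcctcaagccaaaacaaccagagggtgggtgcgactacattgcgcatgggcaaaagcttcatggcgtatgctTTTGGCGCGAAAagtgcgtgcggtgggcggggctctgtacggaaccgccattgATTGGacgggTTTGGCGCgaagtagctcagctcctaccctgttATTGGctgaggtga
Cdc20, Top2a and Kif11 hold a cell cycle homology region within the last bases before the start, beside CCAAT boxes and with no E2F match. Cdk1 holds all 3 motifs. Rfc3 and Mcm6 hold E2F matches and no TTTGAA.

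Levels are given as RPKM, reads scaled to exon length and library size, so that they can be compared between genes. The libraries held 35252019 to 38450002 assigned reads, so a single read over 1 kilobase of exon equals 0.026 to 0.0284 RPKM. Foxp1 itself stood at 1.83, 1.77 and 1.82 RPKM with the empty vector and 5.78, 7.16 and 6.75 with overexpression. It stood at 2.24, 2.20 and 2.11 RPKM with the scrambled hairpin and 1.11, 1.14 and 1.08 with the hairpin against Foxp1. Overexpression replicate 3 stood apart from its group by a mitochondrial share of reads of 13.1%, beside 9.99% and 9.65%. Of 12 markers of mature fat cells 11 were tested, and Lep, the hormone leptin, lay under the filter (means of 0.263, 0.370, 0.0548 and 0.0607 RPKM with the empty vector, overexpression, the scrambled hairpin and the hairpin against Foxp1). The summed level of the 12 was 9571 to 9788 RPKM with the empty vector, 3842 to 4135 with overexpression, 6996 to 7236 with the scrambled hairpin and 9624 to 10316 after Foxp1 knockdown. The summed level of 10 markers of preadipocytes and fibroblasts was 117.3 to 131, 130.4 to 134.1, 141.3 to 159.8 and 124.5 to 140.1 RPKM in the same order. Macrophage markers summed to 3.03 to 5.97 RPKM over all libraries and endothelial markers to 0.208 to 0.583. Skeletal muscle markers summed to 9.38 to 50.4 RPKM, led by Acta1 and Des. None of the markers measured was at 0 in every library, and Myod1 was not among the genes listed. Their part in the results on cell cycle genes was not tested.

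By summed level, mitosis genes were the lowest of the 3 classes and G1 control genes the highest in every library. The 12 G1 control genes summed to 273.1 ± 2.84 RPKM with the empty vector, 277.7 ± 7.37 with overexpression, 263.3 ± 3.91 with the scrambled hairpin and 290.2 ± 4.12 after Foxp1 knockdown (SD, n = 3 each). The 22 replication genes summed to 64.5 ± 0.114, 73.1 ± 4.19, 111.7 ± 4.28 and 124.1 ± 6.5 RPKM in the same order. The 14 mitosis genes summed to 10.9 ± 0.752, 17.9 ± 0.526, 53.5 ± 2.3 and 62.1 ± 5.08 RPKM. For mitosis genes and for replication genes no group reached into another in summed level. For G1 control genes the empty vector and overexpression groups overlapped. The plot of gene levels by library shows that the gap between the pairs of groups is wider for mitosis genes than the gap within a pair. Over all 48 genes, 31 were at 1 RPKM or more in all 12 libraries: 16 replication genes, 3 mitosis genes (Cdk1, Tpx2 and Cdc20) and all 12 G1 control genes. Cdc6, the licensing factor, lay at 0.130 to 0.819 RPKM and Pola1, the catalytic subunit of the priming polymerase, at 0.384 to 0.983 RPKM over all libraries. These 2 were too low for the test, which took the 11245 genes that reached 1 RPKM in 3 or more libraries, and 46 genes remained. Of these, 14 (4 replication and 10 mitosis genes) reached 1 RPKM in no empty vector library. In the GENCODE M21 annotation (GRCm38), the genes named most often here lie at chr7:144929931-144939925 (Ccnd1), chr6:127125162-127152193 (Ccnd2), chr4:11191351-11204779 (Ccne2), chr17:56303321-56323486 (Uhrf1), chr16:18780447-18811987 (Cdc45), chr2:152847964-152895321 (Tpx2) and chr7:122159439-122169873 (Plk1). The lowest mitosis genes rest on few reads: Ccnb2 on 21 to 242 reads per library, Bub1 on 31 to 336 and Kif11 on 40 to 347.

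**Figure D1:**
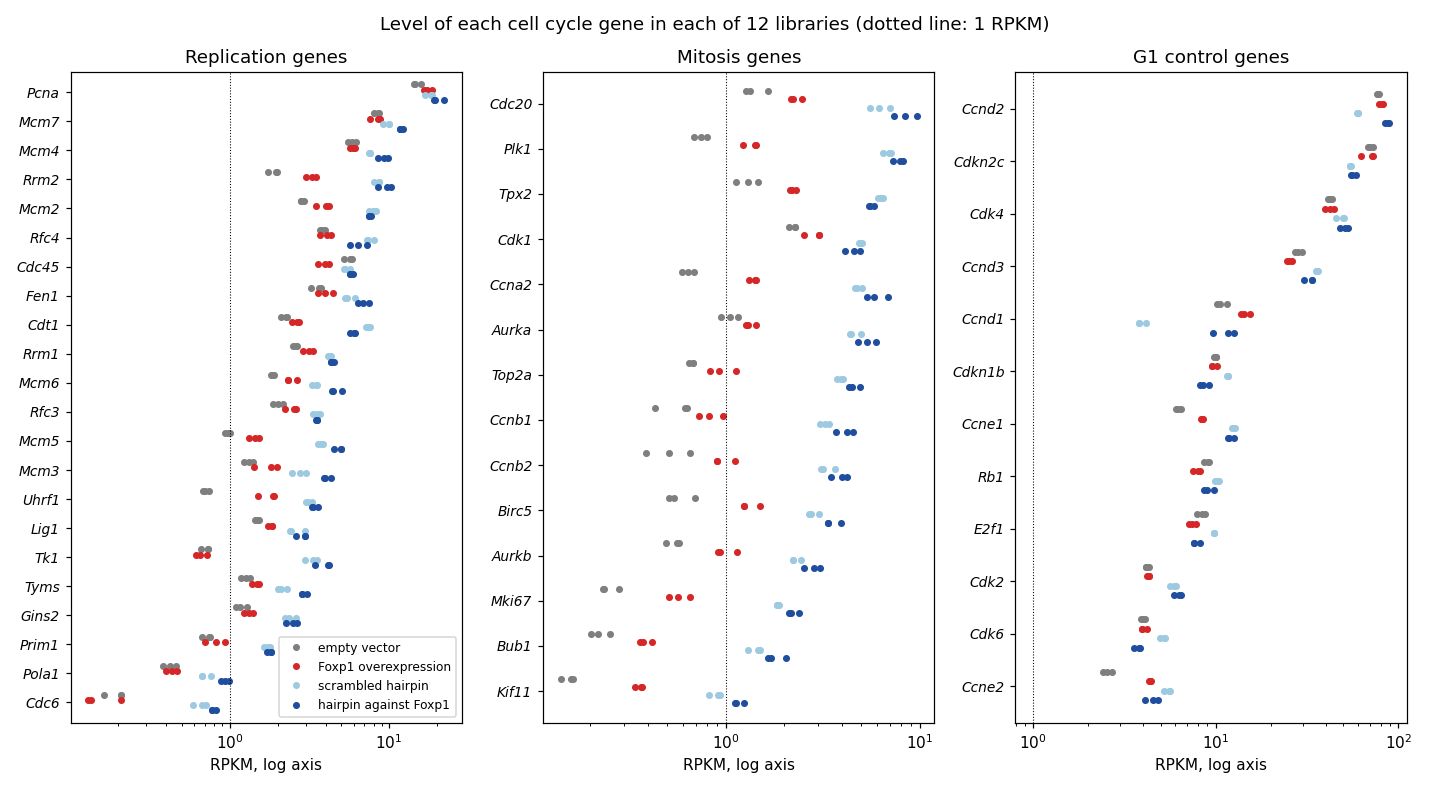
RPKM of each of the 48 genes in each of 12 libraries on a log axis, with genes in the order of their mean level within a class, 1 point per library and colour for the group. Empty vector points of most mitosis genes lie left of the dotted line at 1 RPKM and the points of both hairpin groups right of it, while all G1 control points lie right of it.

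**Figure D2:**
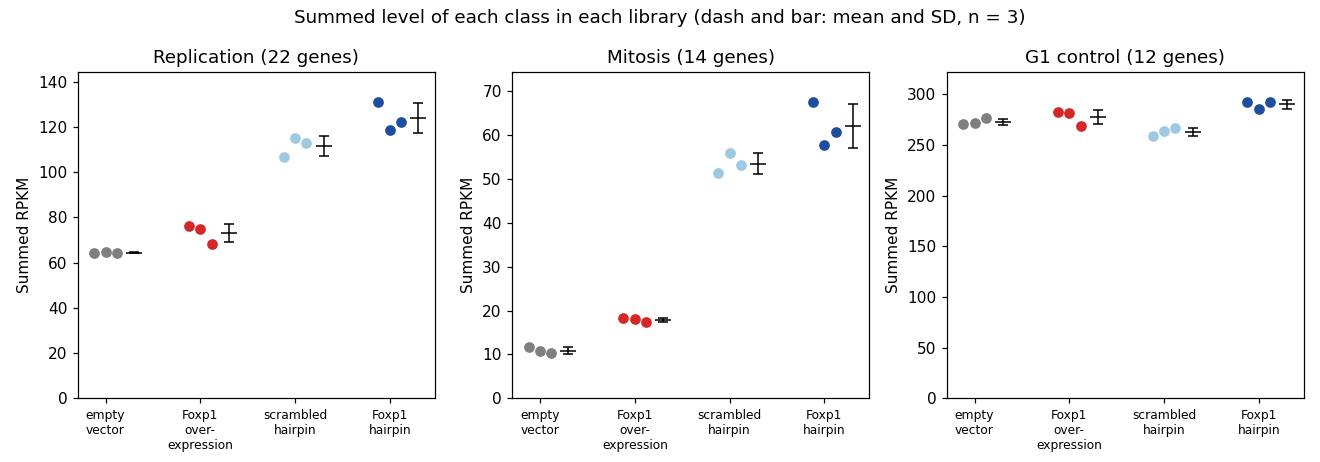
Summed RPKM of the 22 replication, 14 mitosis and 12 G1 control genes in each library, with the mean and SD (n = 3) beside the points. Mitosis genes sum to 10.3 to 11.7 with the empty vector, 17.3 to 18.3 with overexpression, 51.5 to 56 with the scrambled hairpin and 57.7 to 67.7 after Foxp1 knockdown.

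Overlapping genes and pseudogenes touch these levels, and strand and multiple-match settings of the counting were not given in the sources used here. Without strand, reads of a gene and of an overlapping gene on the other strand cannot be told apart. Over 10% of exon length was shared with such a gene in 7 of the 48 genes. These were Fen1 (78.8%, Gm10143), Gins2 (67.3%, Gse1), Ccnd1 (23.4%, LTO1), Cdk4 (19.7%, Tspan31), Ccne2 (17.4%, Ints8), Rfc4 (12.7%, Eif4a2) and Ccna2 (12.5%, Exosc9). Tspan31 reached 87.9 RPKM and Eif4a2 56.7, so the levels of Cdk4 and Rfc4 are uncertain, while LTO1 reached 2.46. Gse1 reached 5.9 RPKM, Exosc9 3.86 and Ints8 3.91. With the empty vector, the means of Gins2 (1.18 RPKM), Ccna2 (0.64) and Ccne2 (2.54) lay below these values. The levels of Gins2, Ccna2 and Ccne2 are therefore uncertain as well. A shorter stretch is shared with a high gene on the other strand by further genes. Fen1 shares it with Tmem258 (130 bases, 64.3 RPKM), Cdc20 with Elovl1 (53 bases, 80.7 RPKM) and Cdc45 with Ufd1 (209 bases, 29.4 RPKM). Mcm7 shares bases with Cops6 (64 bases, 48.96 RPKM) and Ap4m1 (321 bases, 10.38 RPKM). Ccnd3 does so with Bysl (361 bases, 18.17 RPKM) and Rb1 with Rcbtb2 (488 bases, 10.77 RPKM). The levels of these genes are uncertain too. Pcna shares its sequence with a processed pseudogene, Pcna-ps2, which reached 22.2 RPKM, so that reads may have been split between them.

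With Foxp1 overexpression, mitosis genes and a part of the replication genes were higher than with the empty vector. The counts of G1 control genes called were near those of all genes tested. Of 46 genes tested, 29 rose and 4 fell (limma, Benjamini-Hochberg adjusted p under 0.05 over all 11245 genes tested). Over all genes tested, 31.0% were called higher and 20.3% lower. Values were tested as log2(RPKM + 1), a scale that understates the change of low genes, and ratios of mean RPKM are given for size. The median change was 0.20 on this scale for the 46 genes and 0.04 for all genes tested. With no filter on low values, 24 of 48 rose and 4 fell. In the same libraries the mature fat cell markers had fallen in 10 of 11 cases tested and risen in 1, and the preadipocyte and fibroblast markers had risen in 4 and fallen in 3 of 8. RNA of a mixed culture cannot tell more cells in the cycle from more RNA per cell.

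Among replication genes, 12 of 20 rose and 1 fell with overexpression, beside 31.0% and 20.3% of all genes tested. The median change was 0.17. Rises were called for 9 on a TPM scale and for 9 of 22 with no filter. Uhrf1, which brings DNA methylation to newly copied DNA, stood at 0.681, 0.696 and 0.746 RPKM with the empty vector and 1.86, 1.89 and 1.5 with overexpression. The groups lay far apart, and the mean rose 2.47-fold (log2 difference 0.68, SE 0.0568, limma adjusted p = 7.09e-07). Rrm2, the regulated subunit of ribonucleotide reductase, stood at 1.96, 1.75 and 1.98 RPKM and rose to 3.28, 3.47 and 2.99 (ratio 1.71, limma adjusted p = 1.18e-05). Cdc45, the helicase activator, went the other way, from 5.66, 5.23 and 5.87 RPKM to 3.94, 4.2 and 3.59 (log2 difference -0.42, limma adjusted p = 3.07e-05). All 3 overexpression libraries lay below the lowest empty vector library for Cdc45, the single replication gene that fell.

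Of the 6 helicase subunits, 4 rose with overexpression. Mcm2 stood at 2.81, 2.91 and 2.8 RPKM with the empty vector and 4.04, 4.19 and 3.5 with overexpression (ratio 1.38, limma adjusted p = 0.000126). Mcm5 went from 0.997, 0.971 and 0.931 to 1.52, 1.45 and 1.31 RPKM (ratio 1.48, limma adjusted p = 0.000248), and Mcm6 from 1.87, 1.81 and 1.9 to 2.34, 2.66 and 2.31 (ratio 1.31, limma adjusted p = 0.00165). For these 3 genes no library of one group reached into the other. Mcm3 also rose, by 0.24 on the log2 scale (limma adjusted p = 0.0193). Mcm4 was 5.88 ± 0.328 and 5.92 ± 0.206 RPKM (SD, n = 3) and Mcm7 8.42 ± 0.307 and 8.32 ± 0.681, with overlapping libraries and log2 differences of 0.01 and -0.02 that did not pass. Cdt1, the loader of the helicase, rose from 2.22 ± 0.102 to 2.6 ± 0.126 RPKM (limma adjusted p = 0.00632; 0.0536 on a TPM scale). Smaller rises were called for Pcna, the sliding clamp (0.23), Rrm1, the large subunit of ribonucleotide reductase (0.20), Rfc3, a clamp loader subunit (0.19), Lig1, the ligase that joins Okazaki fragments (0.18), and Tyms, thymidylate synthase (0.13). Tk1, thymidine kinase of the salvage pathway, was 0.707 ± 0.0406 and 0.662 ± 0.0544 RPKM and did not pass, nor did Gins2, Rfc4, Prim1 or Fen1 (0.06 to 0.15). By limma, leaving out empty vector replicate 1 (adjusted p = 0.0675), overexpression replicate 1 (0.0828) or overexpression replicate 2 (0.0652) ended the Mcm3 call. The Lig1 call ended without any one of the libraries compared except overexpression replicate 3 (limma adjusted p = 0.0516 to 0.0816), and the Tyms call without empty vector replicate 2 or 3 or overexpression replicate 1 or 2 (0.083 to 0.145).

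All 14 mitosis genes rose with overexpression, beside 31.0% of all genes tested. The rises were 0.18 to 0.56 on the log2 scale with a median of 0.35. The count was 13 with median-ratio scaling or voom, 12 with no filter and 11 with quantile normalization. Tpx2, a spindle assembly factor, stood at 1.48, 1.31 and 1.13 RPKM with the empty vector and 2.32, 2.15 and 2.21 with overexpression (ratio 1.7, limma adjusted p = 7.74e-06). Birc5, the chromosomal passenger protein survivin, went from 0.697, 0.512 and 0.542 to 1.24, 1.25 and 1.51 RPKM (ratio 2.28, limma adjusted p = 1.98e-05). Plk1, the Polo-like kinase, went from 0.803, 0.745 and 0.684 to 1.44, 1.23 and 1.42 RPKM (ratio 1.83, limma adjusted p = 2.72e-05). In each of these genes the lowest overexpression library lay above the highest empty vector library. Ccna2, cyclin A, went from 0.639, 0.592 and 0.688 to 1.43, 1.31 and 1.42 RPKM (ratio 2.17, limma adjusted p = 2.84e-05). Mki67, the proliferation antigen Ki-67, went from 0.283, 0.235 and 0.234 to 0.568, 0.652 and 0.51 RPKM (ratio 2.3, limma adjusted p = 0.00012). Aurkb, Aurora kinase B, went from 0.573, 0.494 and 0.559 to 1.14, 0.915 and 0.932 RPKM (ratio 1.84, limma adjusted p = 0.000279). Groups did not overlap for any of the 14 genes, though several stayed under 1 RPKM after the rise. The share of all genes tested without such overlap was not counted, so this separation cannot be called particular to mitosis genes. Kif11, the motor that pushes spindle poles apart, rose 2.32-fold but only to 0.36 ± 0.0154 RPKM (SD, n = 3).

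The other mitosis genes rose by 1.28-fold to 1.89-fold in mean RPKM. They were Cdk1, the mitotic kinase itself (2.23 ± 0.0926 to 2.86 ± 0.279 RPKM, SD, n = 3), its B-type cyclins Ccnb1 (ratio 1.5) and Ccnb2 (1.89), Cdc20, an activator of the anaphase-promoting complex (1.62), Top2a, the topoisomerase that untangles sister chromatids (1.43), Aurka, Aurora kinase A (1.28), and Bub1, a spindle checkpoint kinase (1.7). The call of Aurka ended with no filter (limma adjusted p = 0.0883), median-ratio scaling (0.0526), quantile normalization (0.0623) and voom (0.0619). Those of Bub1 (0.07 on the log2 scale, limma adjusted p = 0.365) and Ccnb1 (0.18, 0.0604) ended with quantile normalization, and that of Bub1 also with no filter (0.0574). By single libraries, the call of Aurka ended without empty vector replicate 2 or 3 or overexpression replicate 1 or 2 (limma adjusted p = 0.0591 to 0.13). That of Bub1 ended without empty vector replicate 2 or 3 or overexpression replicate 2 (limma adjusted p = 0.0614 to 0.0766), and that of Ccnb1 without replicate 1 of either group (limma adjusted p = 0.0727 and 0.0653). The difference between mitosis and replication genes was not tested.

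Of the 12 G1 control genes, 3 cyclins rose and 3 genes fell with overexpression, with a median change of 0.00. These counts were near the 31.0% and 20.3% of all genes tested and are no result about the class. Ccne2, one of the E-type cyclins that start S phase with Cdk2, stood at 2.4, 2.52 and 2.7 RPKM with the empty vector and 4.44, 4.3 and 4.35 with overexpression (ratio 1.72, limma adjusted p = 9.73e-07). Ccne1, the other E-type cyclin, went from 6.22, 6.47 and 6.03 to 8.44, 8.47 and 8.28 RPKM (ratio 1.35, limma adjusted p = 3.5e-06). Ccnd1, cyclin D1, which responds to growth factors, went from 11.5, 10.1 and 10.6 to 15.4, 13.8 and 14.3 RPKM (ratio 1.35, limma adjusted p = 0.00102). Libraries of the 2 groups did not overlap for these cyclins. Cyclin D3 (Ccnd3) stood at 28.2, 27.3 and 29.6 RPKM and fell to 26.1, 24.5 and 25.1 (log2 difference -0.16, limma adjusted p = 0.01). Rb1 stood at 8.65, 9.14 and 9.02 RPKM and fell to 7.5, 7.95 and 8.24 RPKM (log2 difference -0.16, limma adjusted p = 0.0148). E2f1, the transcription factor that Rb1 holds back, fell from 8.35 ± 0.412 to 7.45 ± 0.357 RPKM (log2 difference -0.15, limma adjusted p = 0.0178). These 3 falls were small, and each ended without single libraries. The Ccnd3 call ended without empty vector replicate 3 (limma adjusted p = 0.0504), that of E2f1 without empty vector replicate 2 or 3 or overexpression replicate 3 (0.0535 to 0.0792), and that of Rb1 without empty vector replicate 2 (0.0544) or overexpression replicate 1 (0.061).

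The other 6 G1 control genes did not pass, and their libraries overlapped between these groups. Cyclin D2 (Ccnd2), the highest of the 48 genes, was at 77.3, 76.5 and 78.3 RPKM with the empty vector and 78, 82.4 and 81.5 with overexpression. The kinase Cdk4 was at 42.1, 41.4 and 43.1, against 44.2, 42.4 and 39.9 RPKM and its relative Cdk6 at 4.07, 3.91 and 4.02, against 3.94, 3.94 and 4.2. The inhibitor Cdkn1b (p27) was at 9.8, 10.04 and 10.01, against 9.57, 10.1 and 9.56 RPKM. Cdkn2c (p18), which inhibits Cdk4 and Cdk6, was at 68.6, 72.4 and 69.8, against 72.5, 72 and 62.5, with the lowest value in overexpression replicate 3. Their log2 differences lay between -0.03 and 0.06, as did that of Cdk2 (0.02), with limma adjusted p of 0.168 or more.

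With the hairpin against Foxp1, 22 of the 46 genes rose and 9 fell against the scrambled hairpin (limma, adjusted p under 0.05). Over all genes tested, 18.7% were called higher and 31.0% lower. The median change was 0.16 for the 46 genes and -0.04 for all genes tested. The split moved with the scaling: it was 28 higher and 5 lower with median-ratio scaling or quantile normalization, and 16 and 9 on a TPM scale. The split over all genes tested moved too, to 24.7% higher and 24.8% lower with median-ratio scaling. Quantile normalization gave 23.6% and 26.0%, and a TPM scale 14.4% and 33.0%. With no filter, 18 of 48 rose and 6 fell. Of the mature fat cell markers 6 had risen and 4 fallen of 11 tested, and of the preadipocyte and fibroblast markers 2 had risen and 3 fallen of 8.

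Of the 12 G1 control genes, 2 rose and 6 fell with the hairpin against Foxp1, beside 18.7% and 31.0% of all genes tested. Ccnd1 stood at 3.79, 3.82 and 4.16 RPKM with the scrambled hairpin and 12.6, 9.64 and 11.6 after knockdown. Every Foxp1 hairpin library was more than 2 times the highest scrambled library, and the mean rose 2.88-fold (log2 difference 1.31, SE 0.079, limma adjusted p = 2.01e-07). Ccnd2 stood at 59.8, 60.3 and 60.2 RPKM and rose to 88, 89 and 84.3 (ratio 1.45, limma adjusted p = 3.32e-07). Cdkn1b stood at 11.6, 11.5 and 11.6 RPKM and fell to 8.49, 9.13 and 8.18 (log2 difference -0.39, limma adjusted p = 9.8e-06). Cdk6 stood at 5.19, 5.27 and 4.95 RPKM and fell to 3.82, 3.8 and 3.56 (log2 difference -0.38, limma adjusted p = 1.19e-05). For these 4 genes the libraries of the 2 groups did not overlap. E2f1 stood at 9.79, 9.75 and 9.73 RPKM and fell to 7.59, 7.58 and 8.23 (log2 difference -0.29, limma adjusted p = 0.000236). Ccne2 stood at 5.53, 5.24 and 5.6 RPKM and fell to 4.51, 4.83 and 4.09 (log2 difference -0.24, limma adjusted p = 0.0022).

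The falls of Ccnd3 and Rb1 were smaller. Ccnd3 stood at 35.3, 35.7 and 36.3 RPKM with the scrambled hairpin and 33.8, 30.5 and 33.5 after knockdown (log2 difference -0.13, limma adjusted p = 0.03), and Rb1 went from 10.3, 9.94 and 10.5 to 8.98, 9.78 and 8.58 RPKM (log2 difference -0.15, limma adjusted p = 0.0181). The Ccnd3 call ended without any one scrambled library or without Foxp1 hairpin replicate 2 (limma adjusted p = 0.055 to 0.121), and the Rb1 call without scrambled replicate 1 or 3 or Foxp1 hairpin replicate 1 or 3 (0.0547 to 0.0819); both ended with median-ratio scaling (0.191 and 0.124). Cdk4 was at 45.6, 49.97 and 50.3, against 51.1, 48 and 53.1 RPKM and Cdkn2c at 54.2, 54.2 and 54.7, against 55.8, 55.3 and 58.6, and neither passed (0.06 on the log2 scale for both). Cdk2 (0.08) and Ccne1 (-0.06) did not pass either. From high to low, cyclin levels stood in the order Ccnd2, Ccnd3, Ccnd1, Ccne1 and Ccne2 both with the empty vector and with overexpression. In the Foxp1 hairpin group, Ccnd1 (11.3 ± 1.5 RPKM, SD, n = 3) and Ccne1 (12 ± 0.48) overlapped. In the scrambled group Ccnd1 (3.92 ± 0.207) was the lowest, below Ccne2 (5.45 ± 0.19).

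**Figure D3:**
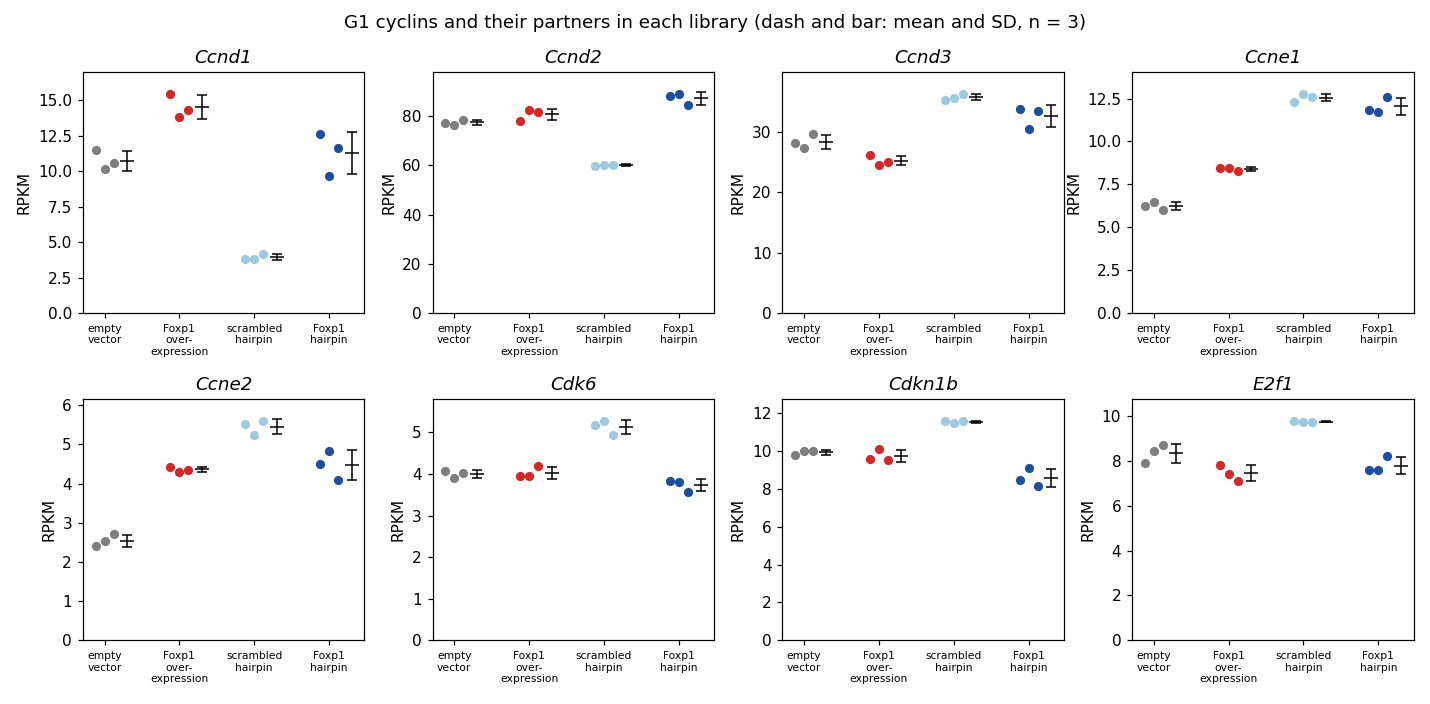
RPKM of 8 G1 genes in each library, 1 panel per gene with its own axis from 0, with the mean and SD (n = 3) beside the points. Ccnd1 and Ccnd2 are lowest in the scrambled group and higher in all 3 libraries with the hairpin against Foxp1, while Cdk6, Cdkn1b and E2f1 are highest in the scrambled group, and Ccne2 rises with overexpression and falls with the hairpin.

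Among replication genes, 9 of 20 rose and 2 fell with the hairpin against Foxp1, beside 18.7% and 31.0% of all genes tested. The median change was 0.12. The rises included 5 of the 6 Mcm helicase subunits. Mcm3 stood at 2.47, 2.997 and 2.76 RPKM with the scrambled hairpin and 4.3, 3.96 and 3.9 after knockdown (ratio 1.48, limma adjusted p = 0.000515). Mcm5 went from 3.75, 3.83 and 3.56 to 5.01, 4.49 and 5.01 RPKM (ratio 1.3, limma adjusted p = 0.00028). Mcm6 went from 3.27, 3.53 and 3.46 to 5.05, 4.42 and 4.37 RPKM (ratio 1.35, limma adjusted p = 0.000297). Groups were apart for these subunits, as they were for Mcm4 and Mcm7. Mcm4 went from 7.49, 7.61 and 7.63 to 9.87, 8.5 and 9.36 RPKM (ratio 1.22, limma adjusted p = 0.00145), and Mcm7 from 9.12, 9.96 and 10.03 to 12.3, 11.7 and 11.7 (ratio 1.23, limma adjusted p = 0.00149). Mcm2, the remaining subunit, was at 7.46, 8.29 and 7.89, against 7.52, 7.53 and 7.66 RPKM, overlapped and did not pass (-0.05 on the log2 scale). Tyms stood at 2.02, 2.1 and 2.28 RPKM and rose to 3.06, 2.85 and 2.83 (ratio 1.37, limma adjusted p = 0.000177). Cdt1 stood at 7.21, 7.59 and 7.42 RPKM and fell to 6.1, 6.04 and 5.71 (log2 difference -0.28, limma adjusted p = 0.000195), with every Foxp1 hairpin library below every scrambled one.

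The other calls among replication genes were near the threshold. Pcna rose by 0.17 (limma adjusted p = 0.0411), Tk1 by 0.20 (0.0224) and Fen1, the flap endonuclease, by 0.26 (0.0116), and Rfc4 fell by 0.20 (0.035), all on the log2 scale. The Fen1 call ended without Foxp1 hairpin replicate 1 (limma adjusted p = 0.0532). The Pcna call ended without scrambled replicate 1 (0.161) or 2 (0.062) or Foxp1 hairpin replicate 1 (0.178), and the Tk1 call without scrambled replicate 1 (0.103) or Foxp1 hairpin replicate 1 (0.0925) or 3 (0.0843), again by limma. The Rfc4 call ended without scrambled replicate 1 or 2 or Foxp1 hairpin replicate 2 or 3 (limma adjusted p = 0.0558 to 0.144) and under both rescalings named above (0.08 and 0.103). Rrm1, Rrm2, Gins2, Cdc45, Rfc3, Prim1, Lig1 and Uhrf1 did not pass, with log2 differences of -0.00 to 0.15. Cdc6 was at 0.591, 0.67 and 0.707 RPKM with the scrambled hairpin and 0.775, 0.775 and 0.819 after knockdown, and Pola1 at 0.767, 0.674 and 0.668, against 0.983, 0.938 and 0.887. Both lay under the filter and outside this test.

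Mitosis genes were mostly a little higher with the hairpin against Foxp1: 11 of 14 rose and 1 fell, with a median change of 0.19. Over all genes tested, 18.7% were called higher and 31.0% lower. With no filter on low values, 8 of 14 rose and 0 fell. Kif11 passed the filter through the Foxp1 hairpin group alone, so its rise was favoured by the filter. It stood at 0.913, 0.94 and 0.824 RPKM with the scrambled hairpin and 1.24, 1.11 and 1.13 after knockdown (ratio 1.3, limma adjusted p = 0.00455). Cdc20 went from 5.53, 7.04 and 6.15 to 9.66, 7.34 and 8.41 RPKM (ratio 1.36, limma adjusted p = 0.00514). Ccna2 went from 4.64, 5.04 and 4.77 to 6.89, 5.33 and 5.82 RPKM (ratio 1.25, limma adjusted p = 0.00634). Replicate 1 of the Foxp1 hairpin was the highest library for all 3 genes, and groups did not overlap. Ccnb1 went from 3.26, 3.07 and 3.4 to 4.54, 3.71 and 4.22 RPKM (ratio 1.28, limma adjusted p = 0.00703). Birc5 went from 2.7, 3.01 and 2.76 to 3.92, 3.38 and 3.38 RPKM (ratio 1.26, limma adjusted p = 0.00757). Ratios of the other called rises were 1.2 for Mki67, 1.17 for Top2a, 1.17 for Aurka, 1.22 for Aurkb, 1.14 for Plk1 and 1.27 for Bub1. Aurka was the one called rise whose libraries overlapped between the groups. Ccnb2 was at 3.32 ± 0.297 and 3.89 ± 0.368 RPKM (SD, n = 3) and Cdk1 at 4.95 ± 0.0853 and 4.55 ± 0.3998, and neither passed. Tpx2 fell from 6.44, 6.35 and 6.12 to 5.86, 5.53 and 5.48 RPKM (log2 difference -0.14, limma adjusted p = 0.0394).

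The count of mitosis genes that rose with the hairpin depended on single libraries and on the scale. It was 6 without scrambled replicate 1 and 7 without Foxp1 hairpin replicate 1, and also 7 with a pseudocount of 0.1 or on a TPM scale. By limma, single libraries ended the calls of Top2a (without scrambled replicate 1, 0.0732, or Foxp1 hairpin replicate 1, 0.0875), Aurkb (the same 2 libraries, 0.0505 and 0.0639) and Bub1 (scrambled replicate 1, 0.0518), the values being adjusted p. Those of Plk1 ended without scrambled replicate 1 or Foxp1 hairpin replicate 1 or 3 (limma adjusted p = 0.0656 to 0.0938), and those of Aurka without replicate 1 or 3 of either group (0.082 to 0.167). The Mki67 call ended with a pseudocount of 0.1 (limma adjusted p = 0.0558) and on a TPM scale (0.0758). The Tpx2 call ended without scrambled replicate 1 or 2 or Foxp1 hairpin replicate 2 or 3 (limma adjusted p = 0.094 to 0.115) and with median-ratio scaling (0.152).

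Set side by side, the responses were in the same direction for most mitosis genes and differed for single G1 and replication genes. Of the 46 genes, 17 rose in both comparisons: 11 mitosis genes, 5 replication genes (Mcm3, Mcm5, Mcm6, Pcna and Tyms) and Ccnd1. Over all genes tested, 4.72% rose in both. A fall in both was called for Ccnd3, E2f1 and Rb1, a share of the 46 near the 5.79% of all genes tested. A rise with overexpression and a fall with the hairpin against Foxp1 was called for Cdt1, Tpx2 and Ccne2, against 12.1% of all genes tested. None of the 46 fell with overexpression and rose with the hairpin, while 6.00% of all genes tested did. Calls near the threshold enter these counts.

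**Figure D4:**
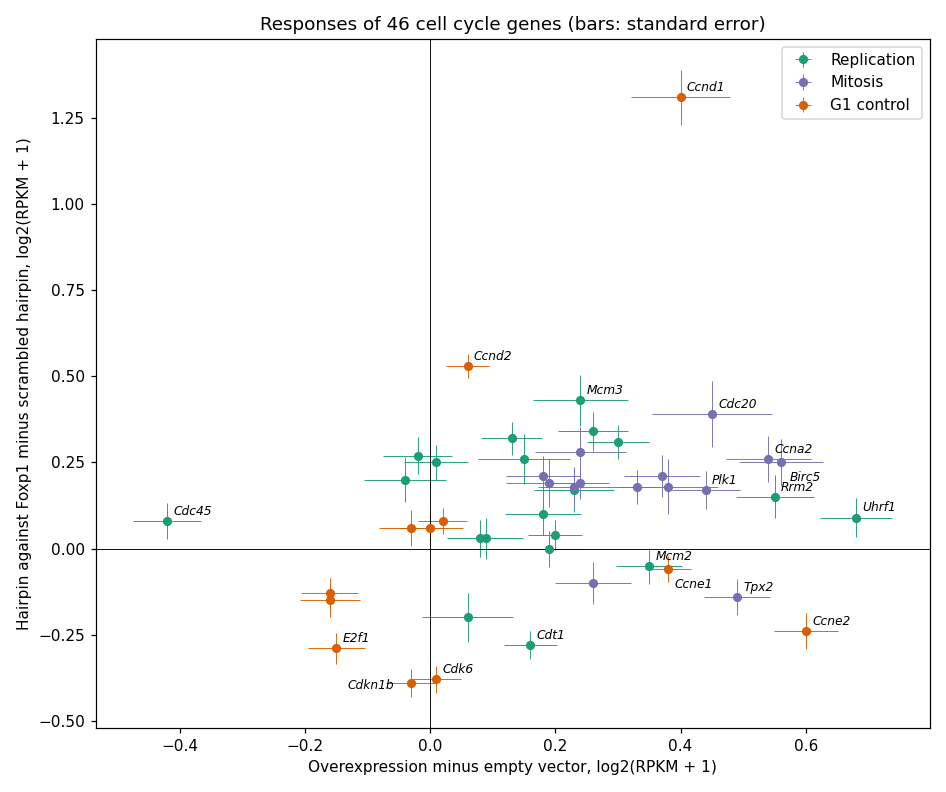
Difference on log2(RPKM + 1) with overexpression (x axis) and with the hairpin against Foxp1 (y axis) for the 46 genes tested, with bars of 1 standard error and colour for the class. Mitosis genes lie to the right of 0 on the x axis, between 0.18 and 0.56, and mostly above 0 on the y axis, Ccnd1 lies highest at 1.31, and Ccne2, Tpx2 and Cdt1 lie to the lower right.

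The difference between the responses, tested in the same model, passed for 23 of the 46 genes. The overexpression response was the higher in 16 genes and the lower in 7, against 34.6% and 20.3% of all genes tested. These counts were near or below those shares and are no result about the 46 genes as a set. With median-ratio scaling the split was 11 and 9, beside 26.8% and 27.1% of all genes tested, and with quantile normalization 10 and 9, beside 27.3% and 26.6%. The differences are signed, so a fall counts as the lower response. In G1 control, Ccne2 had the smallest adjusted p (0.84 on the log2 scale, SE 0.0729, limma adjusted p = 1.18e-06). The difference was also positive for Ccne1 (0.43), Cdk6 (0.38) and Cdkn1b (0.36). Cdk6 and Cdkn1b did not pass with overexpression (0.01 and -0.03) and fell with the hairpin (-0.38 and -0.39). Ccnd1 (-0.91, SE 0.112, limma adjusted p = 2.44e-05) and Ccnd2 (-0.47) had the higher response to the hairpin against Foxp1. Among replication genes, Uhrf1 (0.59), Mcm2 (0.40) and Rrm2 (0.40) responded more to overexpression. Cdt1 (0.44) rose with overexpression (0.16) and fell with the hairpin (-0.28). Mcm7 (-0.29) and Mcm4 (-0.24) had the higher response to the hairpin. Cdc45 (-0.51) fell with overexpression (-0.42), and its change with the hairpin did not pass (0.08). In mitosis, Tpx2 (0.63, limma adjusted p = 1.69e-05) and Cdk1 (0.36) had the higher response to overexpression. These 15 calls held under every alternative run, and the other 8, with differences of -0.24 to 0.31, ended under at least 1. For Mki67, Top2a, Aurka, Aurkb, Bub1, Cdc20, Kif11, Ccnb1 and Ccnb2 the difference did not pass, which does not show that the responses were equal. For 4 of them it passed on other scales, with the overexpression response the higher. With a pseudocount of 0.1 the difference was 0.69 for Mki67, 0.49 for Aurkb, 0.51 for Kif11 and 0.59 for Ccnb2 (limma adjusted p = 0.0014, 0.0105, 0.0186 and 0.0257). With voom on reads it was 0.93, 0.58, 0.83 and 0.69 in the same order (limma adjusted p = 4.6e-05, 0.0113, 0.000586 and 0.0249). For Mki67 and Aurkb it also passed with a pseudocount of 0.5 (limma adjusted p = 0.0159 and 0.0456) and on a TPM scale (0.0146 and 0.0343).

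In each of the 14 mitosis genes the control groups lay further apart than either lay from its Foxp1 group. Against the empty vector, 42 of 46 genes were higher with the scrambled hairpin and 3 were lower, while 44.8% of all genes tested were higher and 27.0% lower. With no filter, 44 of 48 were higher and 3 lower, which leaves aside that 6 genes (Tk1, Prim1, Ccnb1, Mki67, Bub1 and Kif11) had passed the filter through the hairpin groups alone. All 14 mitosis genes were higher, with a median of 1.45 on the log2 scale beside 0.09 for all genes tested. Plk1 was at 0.744 ± 0.0597 RPKM with the empty vector and 6.85 ± 0.332 with the scrambled hairpin (SD, n = 3), a ratio of 9.21. The ratio was 7.53 for Ccna2, 7.4 for Mki67, 6.4 for Ccnb2 and 6.32 for Bub1. Among replication genes, 19 of 20 were higher, with a median of 0.63, and ratios reached 4.63 for Tk1, 4.47 for Rrm2 and 4.43 for Uhrf1. Cdc45 overlapped between the controls (5.59 ± 0.325 and 5.39 ± 0.257 RPKM, SD, n = 3) and did not pass, though quantile normalization and median-ratio scaling called it lower (-0.14 with each, limma adjusted p = 0.0188 and 0.0243).

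Of the 12 G1 control genes, 9 were higher and 3 lower with the scrambled hairpin, beside 44.8% and 27.0% of all genes tested. The share that was lower was thus near that of all genes tested. The ratio was 2.15 for Ccne2 and 2.01 for Ccne1, while Ccnd1 was 2.73 times higher with the empty vector (limma adjusted p = 2.85e-08), Cdkn2c 1.29 times and Ccnd2 1.29 times. The level of Ccnd1 with the hairpin against Foxp1, 11.3 ± 1.5 RPKM, overlapped with that of the empty vector, 10.7 ± 0.69 (SD, n = 3). With overexpression, the mean of Mki67 reached 0.577 ± 0.0711 RPKM and that of Plk1 1.36 ± 0.12, still below all scrambled libraries. The mature fat cell markers were lower with the scrambled hairpin in 7 of 11 cases and higher in 1. The construct type (vector or hairpin) and any other difference between the arms cannot be told apart.

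**Figure D5:**
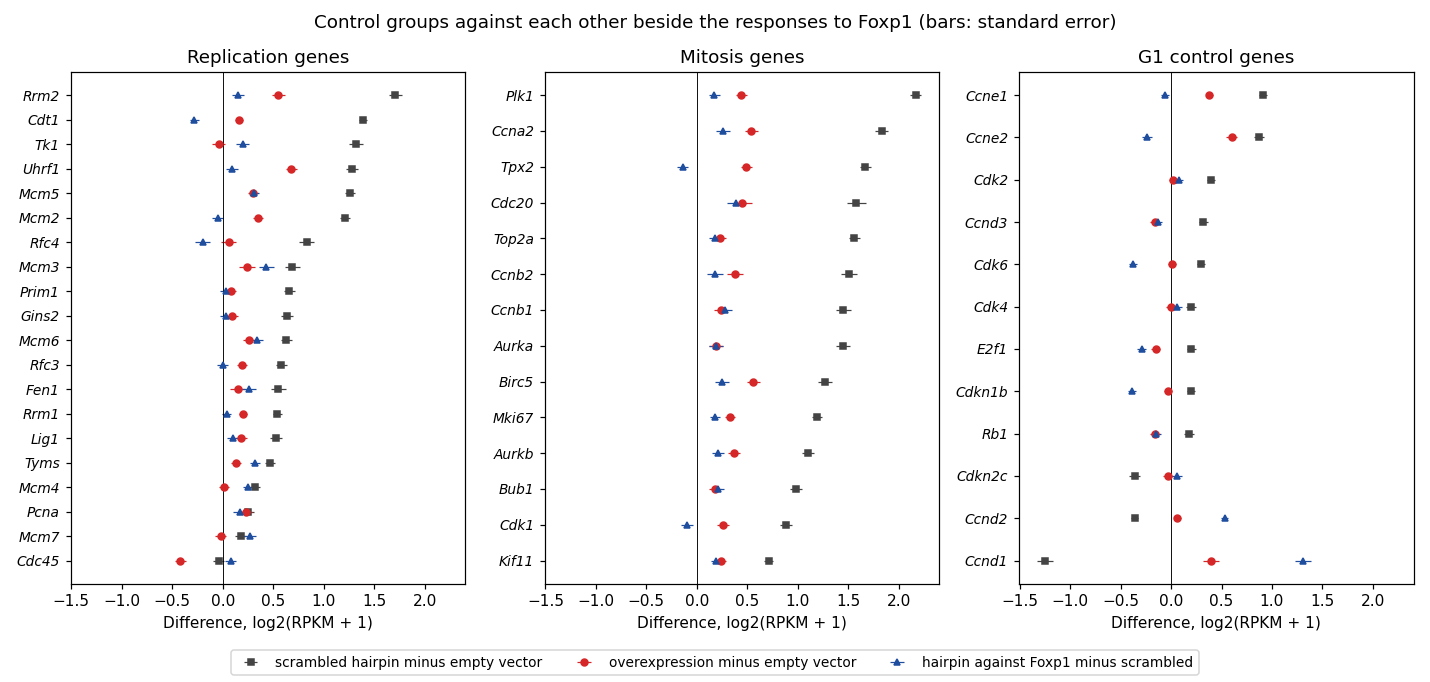
Difference on log2(RPKM + 1) of the scrambled hairpin from the empty vector (squares), of overexpression from the empty vector (circles) and of the hairpin against Foxp1 from the scrambled hairpin (triangles) for the 46 genes tested, with bars of 1 standard error. Squares of mitosis genes lie between 0.71 and 2.17, to the right of both other symbols in every mitosis gene, and Ccnd1 has its square at -1.25 and its triangle at 1.31.

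Lists of other genes of the same pathways held 124 genes, of which 98 were tested. With overexpression 57 rose and 14 fell (median 0.15), beside 31.0% and 20.3% of all genes tested. With the hairpin against Foxp1 23 rose and 25 fell (median -0.00), near the 18.7% and 31.0% of all genes tested, so that these counts are no result about the lists. Among spindle and kinetochore genes, 18 of 21 tested rose and 1 fell with overexpression, and 7 rose and 2 fell with the hairpin. Foxm1, the forkhead factor that drives mitotic genes, rose with overexpression from 1.18 ± 0.0471 to 2.22 ± 0.123 RPKM (SD, n = 3, limma adjusted p = 9.73e-07) and Racgap1, a cytokinesis factor, by 0.41 on the log2 scale. Anln, the cytokinesis protein anillin, fell from 2.31 ± 0.17 to 1.35 ± 0.0328 RPKM (limma adjusted p = 3.3e-06). With the hairpin, the phosphatase Cdc25b fell (-0.32), and Ube2c, a ubiquitin enzyme of mitotic exit (0.39), and the motor Kif20a (0.39) rose. Of 9 condensin and cohesin genes, 6 rose and none fell with overexpression, and 4 rose and 2 fell with the hairpin. Smc4, a condensin subunit, rose in the first (0.36) and fell in the second (-0.32).

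Of 20 genes of the fork and nucleotide supply, 12 rose and 1 fell with overexpression, beside 31.0% and 20.3% of all genes tested. With the hairpin against Foxp1 2 rose and 6 fell, beside 18.7% and 31.0%. The share that fell with the hairpin was thus near that of all genes tested. Dck, deoxycytidine kinase, rose by 0.40 with overexpression and fell by 0.27 with the hairpin on the log2 scale. Pold3, a subunit of polymerase delta (0.31), and Chaf1b of the chromatin assembly factor (0.30) rose with overexpression. With the hairpin Pold2 fell (-0.20) and Timeless, a fork protection factor, rose (0.17). Of 12 origin genes, 3 rose and 2 fell with overexpression and 2 rose and 3 fell with the hairpin, counts near those of all genes tested. On the log2 scale, Orc5 and Gins4 fell (-0.45 and -0.22) and Dbf4 rose (0.27) with overexpression, while Orc3 fell (-0.24) and Orc2 (0.17) and Gins1 (0.23) rose with the hairpin. Only 4 of 12 genes of the S-phase checkpoint and recombination were tested, and 1 rose and 2 fell in each comparison. With overexpression Brca1 (-0.39) and Xrcc2 (-0.27) fell and Blm, a helicase of recombination, rose (0.12). With the hairpin Blm (-0.27) and Xrcc2 (-0.17) fell and Brca1 rose (0.18).

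Of 11 inhibitors, pocket proteins and growth arrest genes, 4 rose and 6 fell with overexpression, beside 31.0% and 20.3% of all genes tested. The antiproliferative gene Btg2 fell from 15.2 ± 0.365 to 7.06 ± 0.194 RPKM (SD, n = 3, limma adjusted p = 2.67e-10), its relative Btg1 from 117.8 ± 2.39 to 69.8 ± 2.93, and the pocket protein Rbl1 from 2.22 ± 0.0601 to 1.08 ± 0.074. With the hairpin 3 rose and 3 fell, near the 18.7% and 31.0% of all genes tested. Cdkn2d (p19), another inhibitor of Cdk4 and Cdk6, was at 11.1 ± 0.379 and 6.96 ± 0.326 RPKM, and Ccng2 (-0.23) and Rbl2 (-0.35) fell. The inhibitor Cdkn1a (p21) went the other way and rose in both comparisons. It went from 109.3 ± 4.14 to 164.6 ± 21.65 RPKM with overexpression (limma adjusted p = 3.06e-05). With the hairpin it went from 140.4 ± 3.82 to 170.8 ± 6.265 RPKM (limma adjusted p = 0.00693). In the E2F and DREAM list, 7 of 12 rose and 1 fell with overexpression, beside 31.0% and 20.3% of all genes tested. With the hairpin 2 of these rose and 6 fell, beside 18.7% and 31.0%. Tfdp2, the dimer partner of E2F proteins, rose with overexpression (0.31) and fell with the hairpin (-0.41), E2f4, a repressive E2F, rose with overexpression (0.30), the MuvB subunit Lin52 fell in both (-0.51 and -0.26), and Lin37 fell with the hairpin (-0.39). Of 9 other regulators of cyclin-dependent kinases, 6 rose and 1 fell with overexpression, and 2 rose and 1 fell with the hairpin, beside the same shares. The growth gene Myc rose in both, from 20.6 ± 0.855 to 35.3 ± 1.08 RPKM with overexpression and from 26 ± 0.576 to 35.7 ± 1.25 with the hairpin (limma adjusted p = 1.43e-08 and 4.98e-06). Ccnh of the Cdk-activating kinase rose (0.31) and Cks1b fell (-0.38) with overexpression, while the inhibitory kinase Wee1 fell (-0.55) and the phosphatase Cdc25a rose (0.25) with the hairpin.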

How the data were processed

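RNA was measured in 12 libraries of 3T3-L1 adipocytes, grouped by the expression construct in the labels. The values are RPKM per gene that the authors deposited, divided by 1000; they were multiplied by 1000 here. HISAT2 2.1.0, Subread 1.5.3 with featureCounts, and mm10 as the build are named per the submitters' processing notes; settings are not given in the sources used here. Symbols and exon lengths came from GENCODE M21 for 28896 of 28948 genes. Value times exon length was a whole number of reads, within 0.05, in 98.83% to 98.93% of the non-zero values of a library, and gave the depth and the reads for voom. Genes with at least 1 RPKM in 3 or more libraries (11245) were tested on the scale log2(RPKM + 1) in R 4.3.3 by limma 3.58.1 (eBayes with trend, 1 model of 4 groups, Benjamini-Hochberg adjusted p under 0.05). The test was tested on simulated data.

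The 48 genes, the classes, the lists and the rule for named genes (all genes called, with values in every library for those of smallest adjusted p per class and comparison and for the D-type cyclins, Cdk4, Cdk6, Cdkn1b, Cdkn2c and Rb1; up to 3 genes per other list and comparison) were chosen with earlier results of these data known. Cdkn1a was named in addition to that rule. Promoter windows came from RefSeq. Alternatives were other pseudocounts, filters, scalings, variance models, voom, only the libraries compared, a replicate block and leaving out each library. Plots were drawn with matplotlib 3.10.9, and tables were written with pandas 2.3.3, both under Python 3.11.15.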

Additional observations from a re-analysis of the deposited data

Results flagged for a closer look

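In 23 of the 46 genes tested, the difference on the log2 scale with overexpression minus that with the hairpin against Foxp1 was itself past the threshold (limma). The overexpression response was the higher in 16 and the lower in 7, beside 34.6% and 20.3% of all genes tested. These counts were near or below those shares and are no result about the 46 genes as a set. No control library is shared between the 2 responses. Among G1 control genes, the values were Ccne2 (0.84, adjusted p = 1.18e-06), Ccne1 (0.43, adjusted p = 2.18e-05), Cdk6 (0.38, adjusted p = 9.5e-05), Cdkn1b (0.36, adjusted p = 0.000161), Ccnd2 (-0.47, adjusted p = 4.78e-06) and Ccnd1 (-0.91, adjusted p = 2.44e-05). Among replication genes that held under every alternative run, they were Uhrf1 (0.59, adjusted p = 5.47e-05), Cdt1 (0.44, adjusted p = 5.43e-05), Mcm2 (0.40, adjusted p = 0.000626), Rrm2 (0.40, adjusted p = 0.00202), Mcm4 (-0.24, adjusted p = 0.0129), Mcm7 (-0.29, adjusted p = 0.0075) and Cdc45 (-0.51, adjusted p = 0.00012). Among mitosis genes that did so, they were Tpx2 (0.63, adjusted p = 1.69e-05) and Cdk1 (0.36, adjusted p = 0.00363).

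Calls of 8 further genes ended under at least 1 alternative. The values were Rfc4 (0.26, adjusted p = 0.0495), Rfc3 (0.20, adjusted p = 0.038), Rrm1 (0.16, adjusted p = 0.0466), Tyms (-0.19, adjusted p = 0.0315) and Tk1 (-0.24, adjusted p = 0.0431) among replication genes and Birc5 (0.31, adjusted p = 0.0161), Ccna2 (0.28, adjusted p = 0.027) and Plk1 (0.27, adjusted p = 0.0106) among mitosis genes (limma). Those of Rrm1 and Rfc4 held only without overexpression replicate 3 or Foxp1 hairpin replicate 1 and ended without any other single library (adjusted p = 0.0544 to 0.109 and 0.0555 to 0.114). That of Rfc3 held only without replicate 1 of the empty vector, overexpression replicate 3 or scrambled replicate 1 (otherwise 0.0554 to 0.0956), and that of Tk1 only without overexpression replicate 1, scrambled replicate 2 or Foxp1 hairpin replicate 2 (otherwise 0.0501 to 0.11). That of Tyms ended without replicate 1 or 2 of either control, overexpression replicate 3 or Foxp1 hairpin replicate 1 (0.0569 to 0.0799). That of Ccna2 ended without empty vector replicate 2, overexpression replicate 1, scrambled replicate 2 or Foxp1 hairpin replicate 2 or 3 (0.0511 to 0.0641). The Ccna2 call also ended with no filter, median-ratio scaling and quantile normalization (limma adjusted p = 0.0718, 0.0792 and 0.163). The calls of Rfc4, Rfc3, Rrm1, Tyms and Tk1 ended with no filter and on a TPM scale as well. Those of Birc5 and Plk1 ended with quantile normalization (0.108 and 0.0615), and that of Birc5 also with median-ratio scaling (limma adjusted p = 0.0508).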

How the results depend on the processing

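No gene changed direction while called. Of calls among the 46 genes, 23 of 33 with overexpression, 18 of 31 with the hairpin against Foxp1, 15 of 23 for the difference of responses and 41 of 45 between the controls held under every alternative run. With overexpression, leaving out 1 library gave 24 to 30 genes higher and 2 to 4 lower (4 in all libraries; 2 without empty vector replicate 2 or 3), and 1 to 3 G1 control genes lower. Mitosis genes higher with overexpression were 11 with quantile normalization, 12 with no filter and 13 with median-ratio scaling or voom, beside 14. With the hairpin against Foxp1, median-ratio scaling and quantile normalization gave 5 genes lower beside 9 (28 higher beside 22), 1 replication gene lower beside 2 and no mitosis gene lower beside 1. One replication gene was also lower with no filter or with only the libraries compared. The count of mitosis genes lower was 0 as well with pseudocounts of 0.1 and 0.5, with no filter and with reads outside the mitochondrial genome. Mitosis genes higher were 7 beside 11 with a pseudocount of 0.1, a TPM scale or a filter at 3 RPKM (fewer genes tested). Median-ratio scaling gave 4 G1 control genes higher beside 2. Leaving out 1 library gave 15 to 23 genes higher and 5 to 8 lower (5 without scrambled replicate 1), 6 to 12 mitosis genes higher and 0 to 1 lower, and 1 to 2 replication genes lower. For the difference of responses, quantile normalization gave 10 genes higher beside 16. Between the controls, leaving out 1 library gave 42 higher and 3 lower each time. The cause of these shifts was not tested.

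Replicate numbers did not pair libraries: deviations of same-numbered libraries correlated at -0.01, 0.12 and 0.08 in the overexpression arm and -0.07, 0.05 and -0.06 in the hairpin arm, and not every library correlated best with its own number. With a replicate block, 29 rose and 4 fell with overexpression, 22 and 9 with the hairpin, and 16 and 6 differed between the responses. Between the controls the block gave 42 and 3. With the block, the calls of Pcna with the hairpin (adjusted p = 0.0597) and of Tk1 for the difference of responses (0.0576) ended, and Ccnb2 passed with the hairpin (0.0434, limma); no other call changed.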
